A study of Mus musculus with 6 samples.

Results

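The genes described here are 10 genes of hypoxia and glycolysis: Slc2a1, Aldoa, Pgk1, Eno1, Ldha, Bnip3, Higd1a, Adm, Ankrd37 and Bhlhe40. They were taken by symbol from the 32285 features of the deposited count tables. The symbols matched 11 features, since Aldoa stands for 2 gene IDs, and the second of these (ENSMUSG00000114515) held 5 UMIs in all cells kept, so Aldoa below is ENSMUSG00000030695. Transcripts of single cells were counted in mouse lung with the 10x 3' assay, which counts unique molecular identifiers (UMIs) per gene and cell. The AML group was 3 libraries of non-haematopoietic (niche) cells from lungs infiltrated by acute myeloid leukaemia of the genotype Trp53 R172H/Δ, with sorted GFP-positive leukaemia cells pooled in at 20% beside 80% niche cells. The Control group was 3 libraries of niche cells from normal lungs, with no leukaemia cells added. The labels give no age, strain, sex or time of infiltration for either group, and do not say that the libraries came from separate animals, so p-values measure the spread between these libraries.

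The AML libraries held 39919902, 45953347 and 46018541 UMIs and gave 4496, 4624 and 5790 cells, and the Control libraries held 19060359, 26789176 and 22687245 UMIs and gave 1718, 3673 and 3444 cells. Cells were sorted into classes by clustering and by fixed markers, and each class is named for the cell type that its markers point to. Of all pairs of libraries, 125 barcode sequences were counted as shared. The leukaemia class held 603, 1135 and 1095 cells in AML 1, 2 and 3 and 0, 2 and 9 cells in Control 1, 2 and 3. Niche classes with at least 20 cells in every library were compared, which left 10 classes. General capillary cells lay in different clusters in the 2 groups. Clusters 7, 8 and 9 held most of those of the Controls, clusters 4 and 6 most of those of AML 2 and AML 3, and cluster 9 the largest share, 41.5%, of those of AML 1. Cluster 6 held 136, 1769 and 685 cells in AML 1, 2 and 3 against 0, 7 and 7 in Control 1, 2 and 3. It made up 84.0% of the general capillary cells of AML 2. Its top genes held the lymphatic marker Lyve1 and, like those of clusters 4 and 8, no marker of general capillary cells. Cluster 6 was kept in the class by a rule set after its values were seen, because Lyve1 was found in 49.1 to 99.0% of the cells of every endothelial cluster. General capillary calls on the 10 genes are therefore given without cluster 6 as well. The differences between classes below were fitted with it only.

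When oxygen is short, cells stop degrading the hypoxia-inducible factors (HIF), which bind DNA with their partner ARNT and raise genes of glucose use, blood vessel signalling and mitochondrial turnover. Slc2a1 encodes the glucose transporter GLUT1. Aldoa, Pgk1, Eno1 and Ldha encode the glycolytic enzymes aldolase, phosphoglycerate kinase, enolase and lactate dehydrogenase, the last of which turns pyruvate into lactate. Bnip3 encodes a protein of the outer mitochondrial membrane that marks mitochondria for autophagy, and Higd1a one of the inner membrane that acts on the respiratory chain. Adm encodes adrenomedullin, a peptide that dilates vessels and keeps the endothelium tight, Ankrd37 an ankyrin-repeat protein, and Bhlhe40 a transcriptional repressor that hypoxia and the circadian clock both regulate. Several of these genes are also set by growth signals, inflammation or cell type.

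In the niche cells 6 of the 10 genes were called higher in AML lungs in at least 1 class, and none was called lower. Over the 10 classes, 78 pairs of a gene and a class had enough UMIs to be tested, and the log2 change was above 0 in 68 of them. Of these pairs, 8 were higher in AML at an edgeR adjusted p below 0.05 and 0 were lower. At an unadjusted p below 0.05 the counts were 34 higher and 2 lower, and DESeq2 called 15 higher and 0 lower. Of all genes, 627 of 6823 in ciliated cells to 2682 of 11524 in general capillary cells passed that unadjusted p in either direction. DESeq2 called 30 of all genes in ciliated cells and 912 in general capillary cells. At the edgeR adjusted p, the share of pairs called higher over all genes was 0.846%. The 10 genes were chosen with earlier results of these data known, so the shares over all genes are no independent yardstick for them. In 32 of the 78 pairs the 3 AML values all lay above the 3 Control values, and in 3 all lay below, against 10.7% above and 11.1% below over all genes. The classes come from the same 6 libraries, so these pairs are not independent. By edgeR, Bnip3 was called in 3 classes, and Ldha, Bhlhe40, Ankrd37, Adm and Higd1a in 1 class each. Slc2a1, Aldoa, Pgk1 and Eno1 were called in none, by edgeR or by DESeq2, and at an unadjusted p below 0.05 they were higher in 1, 4, 3 and 0 classes.

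**Figure D1:**
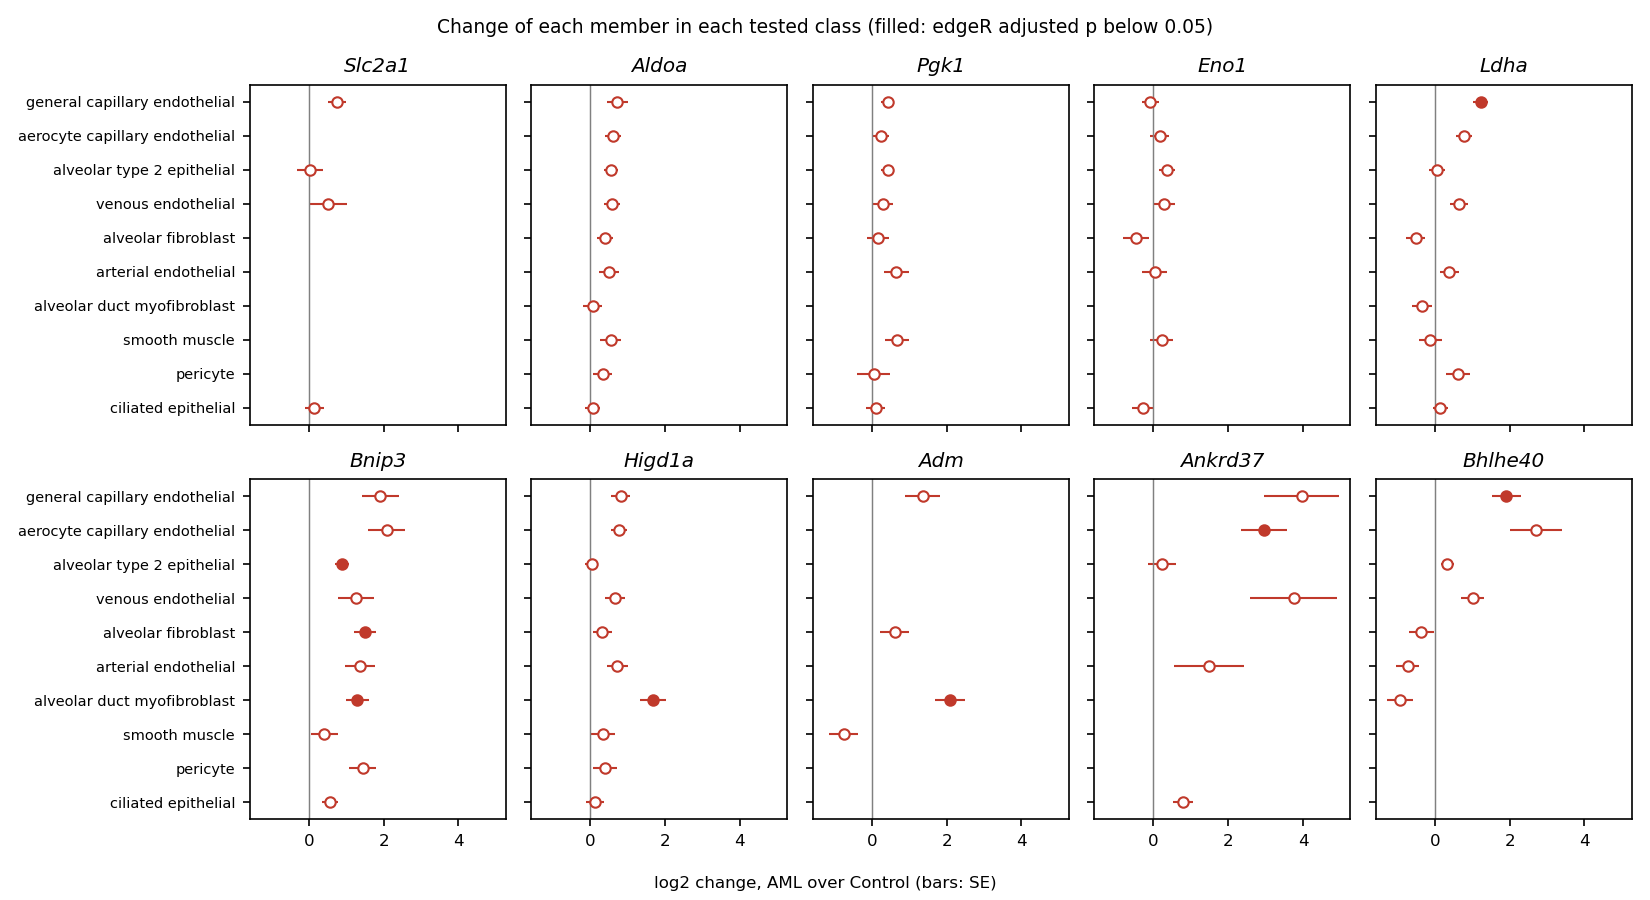
Log2 change of each gene, AML over Control, in the 10 tested classes, from edgeR, with bars for the standard error. Filled points passed an adjusted p of 0.05. Bnip3, Aldoa and Higd1a were tested in all 10 classes and lay to the right of 0 in each, while the points of Bhlhe40 lay on both sides.

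Promoter sequence is shown for the genes called in at least 1 class that have a RefSeq window with at most 17 of its 250 bases in annotated exons, to show where the core of the hypoxia response element, ACGTG, falls in them. The limit of 17 bases is the value of the Ankrd37 window. The windows are the 250 bases before the start site in RefSeq on GRCm38.p6, on the gene's own strand from 5′ to 3′, with ACGTG on either strand (ACGTG or CACGT) in capitals. The palindrome CACGTG counts on both strands, as 2 overlapping matches. Of 32851 such windows of all genes, 16.6% hold at least 1 match, and 1.22% hold 3 or more. Of the 10 genes 9 had a window, and 6 of these had a match in at least 1 of their windows, against 18.5% of all genes with a window. By window, 7 of their 14 held a match. The genes were listed as hypoxia-induced or glycolytic, so these shares are no finding of these data. More windows per gene also give more places for a match. The 9 genes had 14 windows, while all 27025 genes had 32851. Bnip3 lies at chr7:138909507-138909756 on the minus strand, Ldha at chr7:46845554-46845803 on the plus strand, Ankrd37 at chr8:45999851-46000100 on the minus strand and Adm at chr7:110627407-110627656 on the plus strand.
Bnip3: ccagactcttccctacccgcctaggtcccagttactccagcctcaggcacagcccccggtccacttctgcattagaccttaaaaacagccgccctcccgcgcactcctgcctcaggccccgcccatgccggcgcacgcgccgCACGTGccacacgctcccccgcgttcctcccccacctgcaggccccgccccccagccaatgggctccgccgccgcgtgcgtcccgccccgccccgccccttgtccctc
Ldha: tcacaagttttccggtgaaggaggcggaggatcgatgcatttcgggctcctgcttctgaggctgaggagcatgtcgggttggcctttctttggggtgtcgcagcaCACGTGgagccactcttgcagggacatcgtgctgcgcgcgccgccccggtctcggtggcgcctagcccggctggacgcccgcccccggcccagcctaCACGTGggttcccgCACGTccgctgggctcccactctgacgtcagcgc
Ankrd37: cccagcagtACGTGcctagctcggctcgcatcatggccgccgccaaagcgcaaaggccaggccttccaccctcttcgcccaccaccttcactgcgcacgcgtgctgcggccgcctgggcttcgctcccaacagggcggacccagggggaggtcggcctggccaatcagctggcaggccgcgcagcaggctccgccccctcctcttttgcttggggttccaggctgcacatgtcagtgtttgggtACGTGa
Adm: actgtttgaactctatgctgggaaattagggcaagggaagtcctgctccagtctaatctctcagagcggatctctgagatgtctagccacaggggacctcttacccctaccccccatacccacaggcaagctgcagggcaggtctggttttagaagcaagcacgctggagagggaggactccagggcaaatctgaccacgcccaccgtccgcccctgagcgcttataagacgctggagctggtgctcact
Bnip3 holds 1 palindrome, the more upstream of the 2 windows of Ldha holds 5 matches, and Ankrd37 holds 2, of which 1 begins 6 bases before the start site. The Adm window holds none. The other window of Ldha, which is not shown, holds 0 matches. Of the called genes not shown, Higd1a has a window with 0 matches and all 250 bases in annotated exons. Bhlhe40 has no window. A match is a description of these letters and no measure of binding, and HIF can act from sites outside these windows.

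By GENCODE M21, on mm10, the called genes lie as follows. Bnip3 spans 138890836 to 138909519, Ldha 46841475 to 46855627 and Adm 110627661 to 110629820 on chromosome 7. Ankrd37 spans 45996902 to 46005707 on chromosome 8, Higd1a 121848563 to 121858362 on chromosome 9 and Bhlhe40 108660629 to 108666925 on chromosome 6. All are protein-coding genes, and their counts are summed over the gene.

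Slc2a1 passed the count filter in 4 classes. In general capillary endothelial cells it stood at 7.60, 9.92 and 10.7 CPM, its UMIs scaled to a fixed total, in AML 1, 2 and 3, against 4.58, 6.02 and 6.01 CPM in Control 1, 2 and 3. The groups did not overlap, and the log2 change was 0.76 ± 0.24 (SE) with an edgeR adjusted p of 0.105. In ciliated cells, the class with its highest level, Slc2a1 averaged 94.7 ± 18.4 CPM in AML and 86.9 ± 15.2 CPM in Control libraries (SD, n = 3 each), with overlapping groups. In alveolar type 2 cells the 2 groups overlapped as well, at 5.20 ± 0.856 CPM in AML and 5.08 ± 1.54 CPM in Control libraries (SD, n = 3 each).

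Of the glycolytic enzymes, Aldoa and Pgk1 showed small positive changes that did not pass the test. Aldoa had a log2 change between 0.06 and 0.72 over 10 classes, and the AML values lay above all Control values in 4 of them. In alveolar type 2 cells Aldoa stood at 244, 265 and 258 CPM in AML 1, 2 and 3, against 141, 191 and 192 CPM in Control 1, 2 and 3. Those groups did not overlap, and the edgeR adjusted p was 0.0993 at a log2 change of 0.55 ± 0.19 (SE). Pgk1 had log2 changes of 0.04 to 0.68 over 9 classes, and its groups were apart in 2 of them, general capillary and alveolar type 2 cells. Eno1 gave log2 changes from -0.46 to 0.37 over 8 classes, on both sides of 0. Eno1, Aldoa, Pgk1 and Ldha have near-identical copies elsewhere in the genome, such as Eno1b, and UMIs that the counting could have split between copies leave their levels uncertain.

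Of the glycolytic enzymes among the 10 genes, edgeR called only Ldha, and only in general capillary cells. Whether its change differed from that of the other enzymes was not tested. In general capillary cells Ldha stood at 225, 229.9 and 274 CPM in AML 1, 2 and 3, against 82.0, 118 and 113 CPM in Control 1, 2 and 3. Each AML library lay well above each Control library. The log2 change was 1.22 ± 0.19 (SE), a 2.33-fold difference, with an edgeR adjusted p of 0.0204, and without cluster 6 it was 1.31 with an adjusted p of 0.00554. The adjusted p was 0.107 without AML 3, 0.0868 without Control 1 and 0.0744 without Control 3, at log2 changes of 1.08 to 1.29. In this class 2 of 10 genes of the group were called, against 2.89% of the 11524 genes tested, and 7 of 10 had all AML values above all Control values, against 15.2%. The median log2 change of the 10 genes was 1.02, and over all genes it was 8.2e-06.

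**Figure D2:**
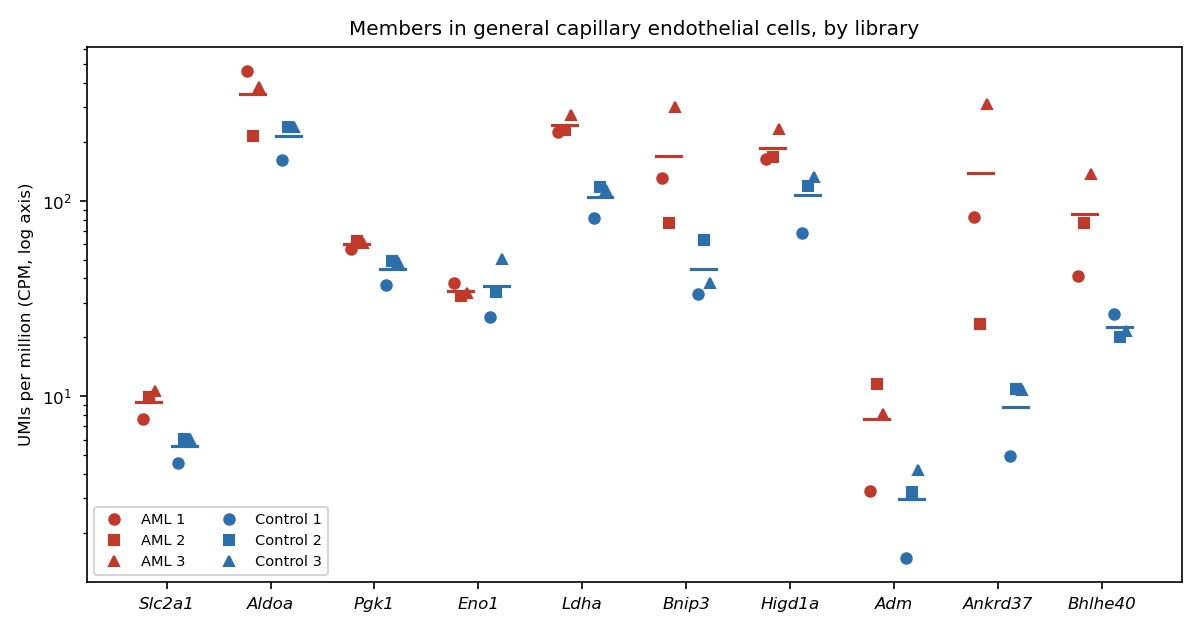
CPM of the 10 genes in general capillary endothelial cells on a log axis, with 1 point per library (AML left, Control right) and a line at the mean. Ldha, Bhlhe40, Bnip3, Ankrd37, Higd1a, Pgk1 and Slc2a1 have 3 AML points above all 3 Control points, and AML 3 is the highest point of Ankrd37 at 311 CPM.

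Ldha lay in the same direction in the other 3 endothelial classes tested, with the groups apart in each, and edgeR called it in none of them. In aerocytes, the thin capillary cells of gas exchange, it stood at 153, 157 and 167 CPM in AML 1, 2 and 3, against 67.1, 105 and 108 CPM in Control 1, 2 and 3, with no overlap, an edgeR adjusted p of 0.0619 and a DESeq2 adjusted p of 0.0278. In alveolar fibroblasts Ldha averaged 103 ± 19.2 CPM in AML and 148 ± 36.3 CPM in Control libraries (SD, n = 3 each), with overlap. The size of the AML effect on Ldha was smaller than in general capillary cells by 1.71 ± 0.20 (SE) on the log2 scale in alveolar fibroblasts, with an edgeR adjusted p of 7.17e-05 for the difference itself. It was also smaller by 1.56 ± 0.25 in alveolar duct myofibroblasts (edgeR adjusted p 0.00111) and by 1.12 ± 0.15 in alveolar type 2 cells (edgeR adjusted p 0.00275, and 0.0511 without Control 1). Of the members tested for a difference between classes, 2 of 8 were called in alveolar fibroblasts against 4.26% of all genes, 2 of 6 in duct myofibroblasts against 1.82%, and 2 of 9 in alveolar type 2 cells against 3.47%. For aerocytes and pericytes, 0 genes of the group were called by edgeR as differing from general capillary cells, against 1.95% and 0.0822% of all genes. At an unadjusted p below 0.05 there were 3 in aerocytes and 0 in pericytes, and no other tool was run on these differences. The share of all genes past that unadjusted p was not counted for them. The pericyte class held much endothelial RNA, so its likeness to capillary cells cannot be read as a trait of pericytes. In AML libraries its endothelial markers summed to 5907 to 8389 CPM and its mesenchymal ones to 381 to 929 CPM. In Control libraries these sums were 8531 to 9308 CPM and 362 to 841 CPM.

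RNA of leukaemia cells, which were added to AML libraries alone, was measured in the capillary cells beside the Ldha result. Of the 13 markers of the leukaemia class, 12 to 13 had a UMI in general capillary cells of the AML libraries and 8 to 9 in those of the Controls, and their summed level was 529 to 782 CPM in AML and 635 to 788 CPM in Control libraries. Those at 5 CPM or less in Control capillary cells and at 50 CPM or more in leukaemia cells, among them Gata1, Gfi1b, Car1 and Cpa3, stood in AML capillary cells at 0.304, 0.522 and 0.678% of their level in leukaemia cells of AML 1, 2 and 3. At those ratios Ldha would bring 3.05, 4.27 and 4.96 CPM, which is 1.33, 1.96 and 1.83% of its level in these cells. Markers of dividing cells summed to 186 to 247 CPM in AML and 82.4 to 125 CPM in Control capillary cells, and those of dissociation stress to 3772 to 4211 CPM in AML and 4451 to 5086 CPM in Control capillary cells. Of the 9 stress genes, 2 were called lower by edgeR, Hspa1a (log2 change -2.58) and Hspa1b (-3.32). The erythroid and platelet markers summed to 8.59 to 13.8 CPM in AML and 42.4 to 77.9 CPM in Control capillary cells, and all 5 tested were called lower, Hbb-bs with a log2 change of -4.27. The part of these last 3 lists in the result was not tested.

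Bnip3 was called in more classes than any other of the 10 genes. Its log2 change was positive in all 10 classes, from 0.41 to 2.08, and in 8 of them the 3 AML values lay above the 3 Control values. In alveolar fibroblasts, the matrix cells of the alveolar wall, Bnip3 stood at 232, 553 and 308 CPM in AML 1, 2 and 3, against 119, 154 and 118 CPM in Control 1, 2 and 3. The groups were well apart, and AML 2 was the highest. The log2 change was 1.502 ± 0.29 (SE) with an edgeR adjusted p of 0.00696. Of the 8 genes of the group tested there, Bnip3 alone was called, against 3.74% of all genes. The adjusted p was 0.0758 without Control 1 and 0.0605 without Control 3. Other markers moved in these fibroblasts too. The 6 endothelial markers summed to 77.4 to 112 CPM in AML and 174 to 989 CPM in Control libraries, and all 3 tested were called lower. The 7 mesenchymal markers summed to 14279 to 25151 CPM in AML and 26279 to 31292 CPM in Control libraries, and 3 of 7, Col1a1, Col1a2 and Col3a1, were called lower. Markers of dividing cells summed to 143 to 251 CPM in AML and 55.1 to 75.3 CPM in Control libraries, and the 1 tested, Hmgb2, was called higher. The part of these lists in the Bnip3 result was not tested.

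In alveolar type 2 cells, which make surfactant, Bnip3 stood at 139.8, 193 and 159 CPM in AML 1, 2 and 3, against 70.0, 105 and 89.5 CPM in Control 1, 2 and 3. The groups did not overlap, at a log2 change of 0.89 ± 0.19 (SE) with an edgeR adjusted p of 0.0131. This was the 1 call among 9 genes tested in the class, against 4.37% of all genes. It was lost without AML 2 (adjusted p 0.0948) and without AML 3 (adjusted p 0.0762). Among markers of other cells and of stress in this class, Hbb-bs, Pf4 and Hspa1a were called lower and Atf3 higher, and their part in the result was not tested.

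In alveolar duct myofibroblasts, the contractile cells at the mouths of the alveoli, 3 of 6 genes tested were called, against 1.23% of all genes. Bnip3 stood at 271, 699 and 470 CPM in AML 1, 2 and 3, against 177, 221 and 186 CPM in Control 1, 2 and 3, a log2 change of 1.29 ± 0.31 (SE) with an edgeR adjusted p of 0.0404. The groups did not overlap. Without AML 2, AML 3 or any 1 Control library the call on Bnip3 was lost, at adjusted p-values of 0.0624 to 0.216. It was also lost with equal cells per library (adjusted p 0.0904), with doublets kept (0.0649) and with free RNA subtracted (0.0516), and was called in 7 of 15 alternatives. The estimated share of free RNA in this class was 17.3% in Control 1 and 0.702 to 1.87% in the other 5 libraries, and its part in the result was not tested. Higd1a stood at 136, 318 and 362 CPM in AML 1, 2 and 3, against 70.8, 90.7 and 95.9 CPM in Control 1, 2 and 3. All AML values were higher, with a log2 change of 1.67 ± 0.35 (SE) and an edgeR adjusted p of 0.0191. Without AML 2, AML 3 or Control 1 its adjusted p was 0.0714, 0.0748 and 0.0505.

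Adm, the other gene called in duct myofibroblasts, stood at 120.4, 131 and 90.6 CPM in AML 1, 2 and 3, against 25.3, 17.01 and 36.0 CPM in Control 1, 2 and 3. The lowest AML library lay above the highest Control library. The log2 change was 2.09 ± 0.41 (SE), a 4.27-fold difference, with an edgeR adjusted p of 0.0154, and 0.0630 without AML 2. At 2000 UMIs per cell, 14.5, 13.6 and 8.97% of these cells held an Adm UMI in AML 1, 2 and 3, against 0, 2.50 and 5.26% in Control 1, 2 and 3. The Control shares rest on 22, 40 and 38 cells, and 0 of 22 allows a share of up to 13.6%, counting error only. In alveolar type 2 cells, where Adm is nearly absent, 1 of 784 cells of AML libraries held one and 0 of 445 cells of Control libraries, which allows up to 0.674%. Thinning left out 56 AML cells and 1 Control cell of the class, whose median depth was 2517 UMIs in AML and 5053 UMIs in Control libraries. Without thinning, the shares were 18.4 ± 3.63% in AML and 12.8 ± 5.34% in Control libraries (SD, n = 3 each) and overlapped. Endothelial markers summed to 40.8 to 107 CPM there in AML and 119 to 1694 CPM in Control libraries. The mesenchymal markers summed to 11517 to 17546 CPM in AML and 16144 to 20555 CPM in Control libraries, with Col1a1, Col1a2 and Col3a1 called lower and Inmt higher. Those of dividing cells summed to 160.0 to 275 CPM in AML and 29.8 to 108 CPM in Control libraries, with Hmgb2 called higher. The part of these markers in the results was not tested. In alveolar fibroblasts, the class with the highest Adm level, it stood at 148, 456 and 177 CPM in AML 1, 2 and 3, against 208, 174 and 137 CPM in Control 1, 2 and 3, with overlapping groups. In smooth muscle Adm lay the other way, at 32.6 ± 2.02 CPM in AML and 57.4 ± 27.1 CPM in Control libraries (SD, n = 3 each), with an edgeR adjusted p of 0.505.

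Higd1a outside duct myofibroblasts had a positive log2 change in all 9 other classes, and edgeR called it in none of them. In general capillary cells it stood at 163, 166 and 232 CPM in AML 1, 2 and 3, against 68.6, 118 and 132 CPM in Control 1, 2 and 3. The groups were apart at a log2 change of 0.81 ± 0.25 (SE), an edgeR adjusted p of 0.102 and a DESeq2 adjusted p of 0.0325. In alveolar type 2 cells its change was 0.03, and there it was smaller than in general capillary cells by 0.78 ± 0.15 (SE) on the log2 scale, with an edgeR adjusted p of 0.0171 for the difference, which was lost without AML 3 or any 1 Control library (0.0577 to 0.156).

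Ankrd37 had the largest log2 change of the 78 pairs, in general capillary cells, with wide differences among the AML libraries. In general capillary cells it stood at 83.0, 23.3 and 311 CPM in AML 1, 2 and 3, against 4.95, 10.9 and 10.7 CPM in Control 1, 2 and 3. All AML libraries were above all Controls, and AML 3 was far above AML 2. The log2 change was 3.97 ± 0.99 (SE) with an edgeR adjusted p of 0.0912. The DESeq2 adjusted p was 0.00274, and the edgeR adjusted p was 0.0315 without AML 1, 0.0248 without AML 2 and 0.118 without AML 3, at log2 changes of 4.23, 4.47 and 2.58. In aerocytes Ankrd37 was called, at 33.4, 25.0 and 112 CPM in AML 1, 2 and 3, against 4.47, 8.63 and 9.15 CPM in Control 1, 2 and 3. The groups did not overlap there, and the log2 change was 2.95 ± 0.62 (SE) with an edgeR adjusted p of 0.0479. That was the only edgeR call of 8 genes tested in aerocytes, against 3.21% of all genes, while DESeq2 called 4, Ankrd37, Bhlhe40, Ldha and Bnip3. Over all 8950 genes there DESeq2 called 358. The edgeR call was lost without Control 1, 2 or 3, at adjusted p-values of 0.214 to 0.252. Among markers of other cells and of stress in aerocytes, Hspa1a and Hspa1b were called lower and Hmgb2 higher, and their part in the result was not tested.

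In venous endothelial cells Ankrd37 stood at 34.0, 16.4 and 208 CPM in AML 1, 2 and 3, against 6.09, 7.14 and 6.78 CPM in Control 1, 2 and 3, again with AML 3 on top. In arterial endothelial cells it overlapped between groups, at 61.7, 7.08 and 166 CPM in AML 1, 2 and 3, against 17.2, 35.5 and 29.3 CPM in Control 1, 2 and 3. The arterial effect was smaller than the capillary one by 2.46 ± 0.34 (SE) on the log2 scale, with an edgeR adjusted p of 0.000399. In arterial cells edgeR called 0 of 8 genes of the group, against 0.361% of all genes, with 2 higher and 1 lower at an unadjusted p below 0.05 and 0 by DESeq2. Of all 5816 genes there, 677 passed that unadjusted p in either direction and DESeq2 called 50. In venous cells edgeR called 0 of 9, against 0.398% of all genes, with 6 at an unadjusted p below 0.05 and 1, Ankrd37, by DESeq2. Of all 8799 genes in venous cells, 1068 passed that unadjusted p and DESeq2 called 128. Ciliated cells held 98.8 ± 20.7 CPM of Ankrd37 in AML and 55.9 ± 1.54 CPM in Control libraries (SD, n = 3 each), apart but not called. Alveolar type 2 cells held 5.17 ± 1.58 CPM in AML and 4.27 ± 1.37 CPM in Control libraries (SD, n = 3 each), with overlap.

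Since Ankrd37 was among the leading genes of capillary cluster 4, its level was also read in clusters made without any of these genes or the companion genes below. In cluster 9 of that grouping, which held 1843 cells of AML 2, Ankrd37 stood at 29.2, 22.5 and 295 CPM in AML 1, 2 and 3. Fewer than 20 Control cells of any library fell in this cluster. In cluster 3 it stood at 129, 39.6 and 480 CPM in AML 1, 2 and 3, against 18.7 and 6.60 CPM in Control 2 and 3. AML 3 was the highest library in 4 of the 5 clusters it could be read in. The class as a whole gave a log2 change of 3.98 and an edgeR adjusted p of 0.0943 under this grouping. At 2000 UMIs per cell, 13.4, 2.94 and 35.5% of general capillary cells held an Ankrd37 UMI in AML 1, 2 and 3, against 0.795, 1.75 and 1.64% in Control 1, 2 and 3. In alveolar type 2 cells, where the gene is scarce, 0.893 ± 0.445% of cells held one in AML and 0.9998 ± 0.695% in Control libraries (SD, n = 3 each). The Control shares in capillary cells were near that level. Thinning left out 1296 AML and 236 Control capillary cells, from median depths of 3444 and 5293 UMIs, and 7 AML and 8 Control alveolar type 2 cells, from median depths of 12729 and 20040 UMIs. Without thinning, the shares were 22.7 ± 17.8% in AML and 4.45 ± 0.137% in Control capillary cells, and 4.16 ± 1.10% in AML and 6.68 ± 2.79% in Control alveolar type 2 cells (SD, n = 3 each). An exact permutation test of 3 against 3 libraries cannot go below p = 0.1.

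**Figure D3:**
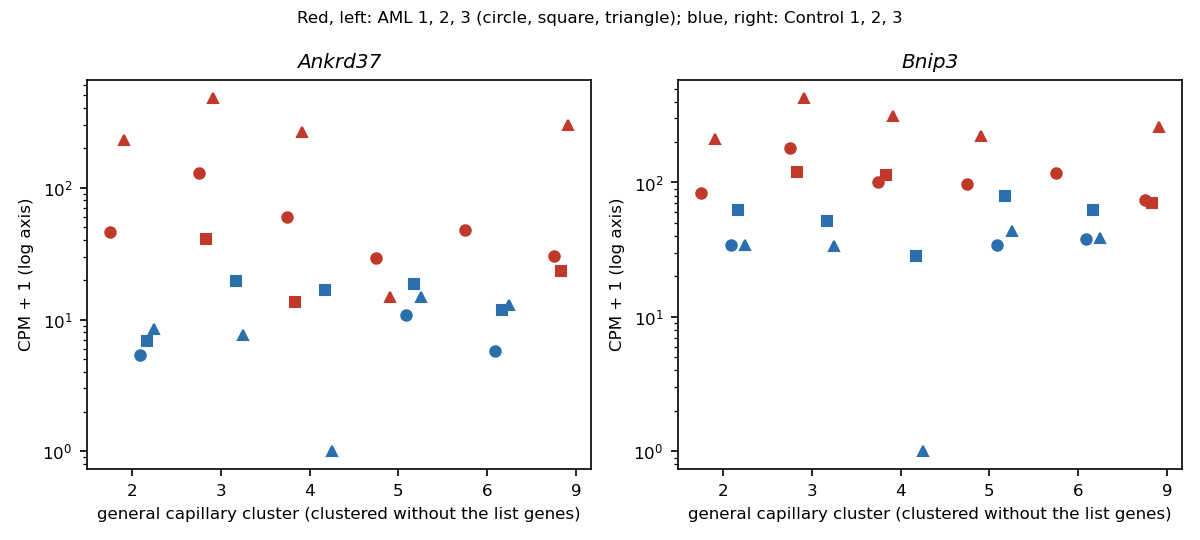
Ankrd37 and Bnip3 in the clusters of general capillary cells made without these genes, as CPM + 1 on a log axis, with 1 point per library of at least 20 cells (AML red and left, Control blue and right). The triangle of AML 3 is the highest point of Bnip3 in all 5 clusters that hold it, reaching 426 CPM in cluster 3.

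AML 3 was the highest library for Bnip3 in the capillary cells as well. It stood at 130.2, 77.3 and 301 CPM in AML 1, 2 and 3, against 33.4, 63.2 and 37.8 CPM in Control 1, 2 and 3 in general capillary cells. The groups were apart, with AML 2 only a little above Control 2, and the log2 change was 1.92 ± 0.50 (SE) with an edgeR adjusted p of 0.0845 and a DESeq2 adjusted p of 0.0319. Without AML 3 the log2 change was 1.21, with an edgeR adjusted p of 0.145. Without cluster 6 the log2 change was 2.13 with an adjusted p of 0.0282. In aerocytes Bnip3 stood at 118, 138 and 345 CPM in AML 1, 2 and 3, against 30.2, 71.2 and 39.5 CPM in Control 1, 2 and 3, apart again, with an edgeR adjusted p of 0.0704 and a DESeq2 adjusted p of 0.0185. The order of the AML libraries differed by class. AML 3 was highest for Bnip3 in the 4 endothelial classes and in pericytes, whose class held much endothelial RNA. AML 2 was highest in alveolar fibroblasts, duct myofibroblasts, smooth muscle, alveolar type 2 and ciliated cells.

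Bhlhe40 was higher in AML general capillary cells, and in duct myofibroblasts and alveolar fibroblasts it lay below all Control values without being called. In general capillary cells it stood at 41.2, 77.3 and 138 CPM in AML 1, 2 and 3, against 26.3, 20.1 and 21.6 CPM in Control 1, 2 and 3. The groups did not overlap, with a log2 change of 1.91 ± 0.38 (SE) and an edgeR adjusted p of 0.0363. That call was lost without any single library other than AML 1 (adjusted p 0.0740 to 0.173) and without cluster 6 (adjusted p 0.0761). In aerocytes it stood at 16.0, 61.9 and 88.2 CPM in AML 1, 2 and 3, against 14.5, 6.47 and 4.57 CPM in Control 1, 2 and 3, where AML 1 and Control 1 nearly met. In duct myofibroblasts it lay the other way, at 40.1, 74.9 and 69.0 CPM in AML 1, 2 and 3, against 126, 108 and 114 CPM in Control 1, 2 and 3. There all AML values were below all Control values, at a log2 change of -0.92 ± 0.35 (SE) and an edgeR adjusted p of 0.212. In alveolar fibroblasts it stood at 16.4, 32.9 and 34.2 CPM in AML 1, 2 and 3, against 38.1, 39.9 and 36.1 CPM in Control 1, 2 and 3, also with no overlap, at a log2 change of -0.37 ± 0.34 (SE) and an edgeR adjusted p of 0.646. In arterial cells Bhlhe40 averaged 78.9 ± 22.9 CPM in AML and 133 ± 42.4 CPM in Control libraries (SD, n = 3 each), with overlap.

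The differences between classes passed the test for Bhlhe40. Set against general capillary cells, its AML effect was lower by 2.81 ± 0.35 (SE) on the log2 scale in duct myofibroblasts (edgeR adjusted p 0.000145), by 2.56 ± 0.28 in arterial cells (edgeR adjusted p 5.96e-05) and by 2.29 ± 0.33 in alveolar fibroblasts (edgeR adjusted p 0.000780). In venous cells the effect was lower by 0.87 ± 0.19 (edgeR adjusted p 0.0256), which was lost without AML 3 or any 1 Control library (0.119 to 0.320). For arterial cells 3 of 8 genes of the group differed from general capillary cells in this way, against 1.95% of all genes, and for venous cells 2 of 9, against 0.790%. For ciliated cells 1 gene differed, Ldha, against 1.83% of all genes. For smooth muscle Ldha was likewise the 1 gene that differed, against 52 of all 5186 genes tested. Bnip3 differed from general capillary cells in no class by this test, with differences between -1.46 and 0.22 on the log2 scale.

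In smooth muscle edgeR called 0 of 7 genes of the group in AML against Control, in pericytes 0 of 5 and in ciliated cells 0 of 8. The shares called over all genes were 0.803%, 0.486% and 0.616%. At an unadjusted p below 0.05, 1, 1 and 2 genes were higher in these classes, and DESeq2 called 0 in each. Of all 5479, 4942 and 6823 genes tested, 604, 549 and 627 passed that unadjusted p in either direction, and DESeq2 called 40, 56 and 30. The 6 endothelial markers summed to 5907 to 8389 CPM in AML and 8531 to 9308 CPM in Control pericyte-like cells. The 7 mesenchymal markers summed to 381 to 929 CPM in AML and 362 to 841 CPM in Control pericyte-like cells. The estimated share of free RNA in this class was 21.6, 13.2 and 38.1% in AML 1, 2 and 3. It was 25.3, 5.61 and 4.40% in Control 1, 2 and 3. The part of these markers and of free RNA in the pericyte values was not tested.

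The leukaemia cells had another balance of the 10 genes than the niche. The classes were made by clustering these same cells, so levels between classes are given without a test. Ldha averaged 852 ± 132 CPM in leukaemia cells of the AML libraries, and its next class in the same libraries was neutrophils, at 361 ± 136 CPM (SD, n = 3 each). The ranges of those 2 did not overlap, and in niche classes of the AML libraries Ldha ran from 103 ± 19.2 CPM in alveolar fibroblasts to 358 ± 67.5 CPM in ciliated cells. The neutrophil class, of 208 cells, may also hold other myeloid cells. The main clustering named no monocytes and macrophages, while the clustering with doublets kept named 163 such cells and 69 neutrophils. Eno1 was highest in leukaemia cells as well, at 309 ± 48.7 CPM, followed by neutrophils at 204 ± 46.9 CPM, and alveolar type 2 cells held 18.1 ± 2.37 CPM (SD, n = 3 each). Pgk1 stood at 163 ± 31.5 CPM in leukaemia cells and 174 ± 71.8 CPM in neutrophils (SD, n = 3 each), which overlapped. Aldoa, at 394 ± 76.9 CPM, and Higd1a, at 181 ± 11.3 CPM, lay within the range of the niche classes (SD, n = 3 each).

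Bnip3, Ankrd37, Slc2a1, Bhlhe40 and Adm each averaged below 10 CPM in leukaemia cells. Bnip3 stood at 8.64 ± 1.37 CPM there, below each of the 10 niche classes of the AML libraries, which ran from 63.9 ± 31.5 CPM in smooth muscle to 480.0 ± 214 CPM in duct myofibroblasts (SD, n = 3 each). Ankrd37 averaged 7.47 ± 0.225 CPM, Slc2a1 3.95 ± 1.39 CPM, Bhlhe40 2.98 ± 1.09 CPM and Adm 0.139 ± 0.121 CPM in leukaemia cells (SD, n = 3 each). Within the 3 leukaemia clusters the pattern held: Ldha ran from 514 to 1129.7 CPM and Bnip3 from 5.66 to 10.7 CPM over clusters and libraries. Low levels were not particular to leukaemia cells in the AML libraries. T and NK lymphocytes averaged 7.04 ± 7.51 CPM of Bnip3, and B lymphocytes 3.38 ± 3.09 CPM of Bhlhe40 (SD, n = 3 each). Ankrd37 averaged 6.45 CPM in alveolar fibroblasts, 5.17 CPM in alveolar type 2 cells and 5.08 CPM in smooth muscle. Adm averaged 0.795 CPM in alveolar type 2 cells.

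**Figure D4:**
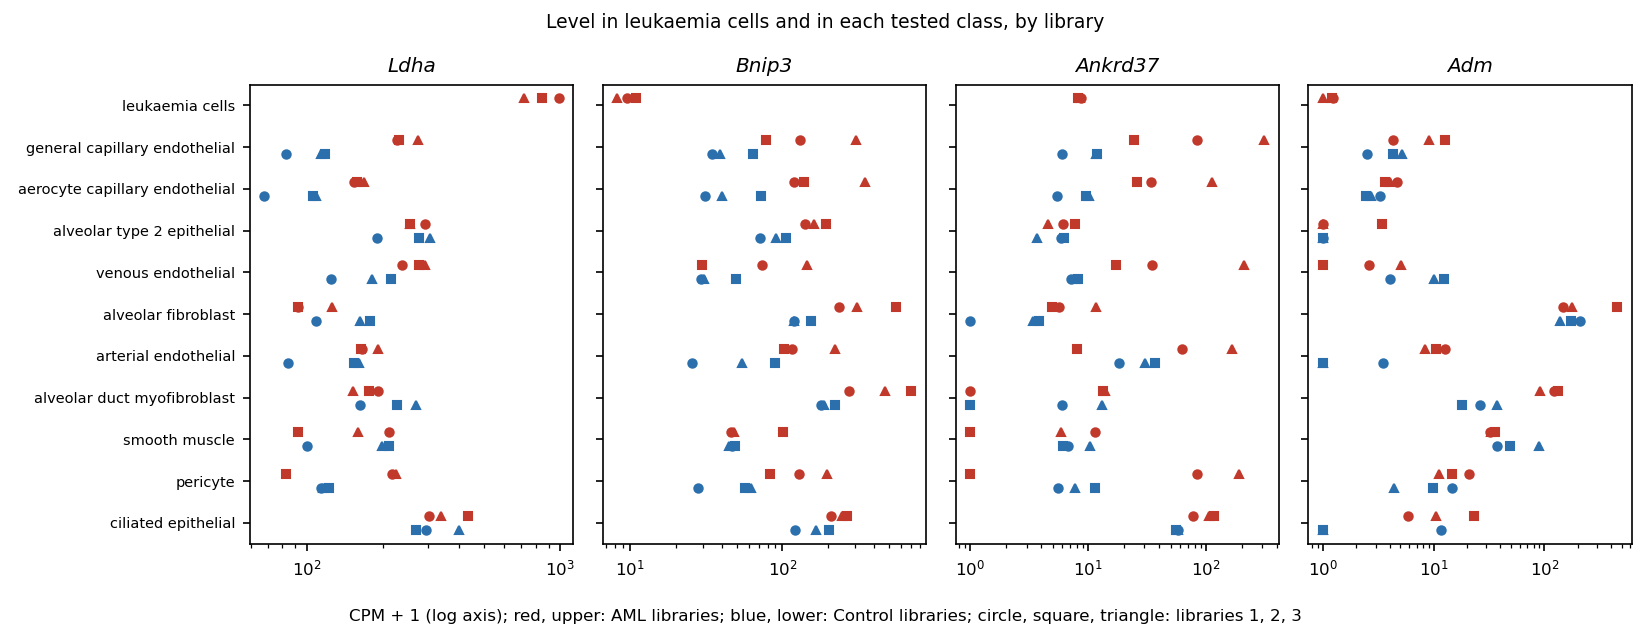
Ldha, Bnip3, Ankrd37 and Adm as CPM + 1 on a log axis in leukaemia cells and the 10 tested classes, with 1 point per library (AML red and above, Control blue and below). Leukaemia cells are the highest row for Ldha, at 852 CPM on average, and the lowest for Bnip3, at 8.64 CPM.

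Across niche classes each gene had its own order of levels. In AML libraries Adm was highest in alveolar fibroblasts, at 260.3 ± 170.0 CPM, then in duct myofibroblasts, at 114 ± 21.0 CPM, and in smooth muscle, at 32.6 ± 2.02 CPM (SD, n = 3 each), and the ranges of these 3 did not overlap. In Control libraries the order was alveolar fibroblasts at 173 ± 35.6 CPM, smooth muscle at 57.4 ± 27.1 CPM and duct myofibroblasts at 26.1 ± 9.51 CPM (SD, n = 3 each), again with no overlap between neighbours. Bnip3 was led by duct myofibroblasts in both groups, at 480.0 ± 214 CPM in AML and 195 ± 23.4 CPM in Control libraries (SD, n = 3 each). It overlapped with the next class in both groups. Bhlhe40 was led by venous cells in AML libraries, at 151 ± 64.2 CPM, and by arterial cells in Controls, at 133 ± 42.4 CPM (SD, n = 3 each), each overlapping with the next class. For Ldha in Controls the 2 capillary classes were at the bottom of the 11 classes ranked, general capillary cells at 104 ± 19.4 CPM and aerocytes at 93.2 ± 22.7 CPM (SD, n = 3 each), with overlap.

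Over 94 values of a class in a library, the genes most like each member by Pearson's r of log2(CPM + 1), among 7060 genes with a mean of at least 20 CPM, were taken as a description. These values share libraries and cell types and are not independent. Adm was most like Nox4 (r = 0.86) and Sod3 (r = 0.82). Eno1 was most like Anp32b (r = 0.77) and Gapdh (r = 0.77), and Pgk1 like Gapdh (r = 0.68) and Cox5a (r = 0.67). Bnip3 was most like Gstm1 (r = 0.74) and Chpt1 (r = 0.72), and Ldha like H2afz (r = 0.67) and Atp5g3 (r = 0.66). The nearest genes of Aldoa, Higd1a, Ankrd37, Slc2a1 and Bhlhe40 had r between 0.51 and 0.70.

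Genes around the 10 in the same pathways, in 5 companion lists, were tested in the same fits. Over all genes, edgeR called 2.08% of pairs of a gene and a class in either direction and 0.846% higher. Of 15 further glycolytic enzymes, among them Hk1, Gapdh and Pkm, 84 pairs of a gene and a class were tested and 0 were called in either direction by edgeR, with a median log2 change of 0.10. At an unadjusted p below 0.05 there were 4 higher and 1 lower, and DESeq2 called 1, higher. The median log2 change of all genes lay within 0.0146 of 0 in every class. Of 20 genes of glucose and lactate transport and of control of the flux, 1 of 69 pairs was called higher, Mpc1 in aerocytes, which carries pyruvate into mitochondria. It stood at 111, 144 and 102 CPM in AML 1, 2 and 3, against 46.4, 72.6 and 69.8 CPM in Control 1, 2 and 3, with no overlap and an edgeR adjusted p of 0.0400. The 69 pairs of this list gave 15 higher and 3 lower at an unadjusted p below 0.05, and DESeq2 called 2 higher and 0 lower. Of 11 genes of oxygen sensing and HIF subunits, 1 of 70 pairs was called higher, Hif3a in alveolar type 2 cells, and 1 lower, Cited2 in general capillary cells. These 70 pairs gave 6 higher and 3 lower at an unadjusted p below 0.05, and DESeq2 called 2 higher and 1 lower. Cited2, which holds back HIF at its coactivator, stood at 23.1, 22.2 and 28.0 CPM in AML 1, 2 and 3, against 42.2, 40.7 and 39.5 CPM in Control 1, 2 and 3, well apart, with an edgeR adjusted p of 0.0363.

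Of 24 other hypoxia-induced genes, 149 pairs were tested, and edgeR called 4 higher and 5 lower. The log2 change was above 0 in 85 of these pairs. There were 31 higher and 19 lower at an unadjusted p below 0.05, and DESeq2 called 11 higher and 5 lower. Counts over all genes at these thresholds are given above for single classes. The 5 lower edgeR calls were all of 1 gene, P4ha1, a subunit of the prolyl hydroxylase that matures collagen. They fell in aerocytes, venous cells, alveolar fibroblasts, smooth muscle and ciliated cells. In alveolar fibroblasts P4ha1 stood at 63.4, 47.8 and 37.4 CPM in AML 1, 2 and 3, against 98.6, 145 and 159 CPM in Control 1, 2 and 3. All AML values were lower, at a log2 change of -1.48 ± 0.27 (SE) and an edgeR adjusted p of 0.00471. In venous cells P4ha1 stood at 24.3, 16.4 and 24.9 CPM in AML 1, 2 and 3, against 62.4, 53.5 and 53.5 CPM in Control 1, 2 and 3, with an edgeR adjusted p of 0.0444. The related P4ha2 went the other way in aerocytes, at 58.1, 81.7 and 73.9 CPM in AML 1, 2 and 3, against 36.9, 38.1 and 25.7 CPM in Control 1, 2 and 3. Those values did not overlap, with an edgeR adjusted p of 0.0184. Angptl4, which restrains lipoprotein lipase, was called higher in alveolar type 2 cells, at 28.0 ± 9.10 CPM in AML and 7.27 ± 2.04 CPM in Control libraries, and in duct myofibroblasts, at 245 ± 110 CPM in AML and 84.9 ± 6.45 CPM in Control libraries (SD, n = 3 each; edgeR adjusted p 0.000755 and 0.0279). Hmox1, the heme-degrading enzyme, was higher in aerocytes, at 30.6 ± 18.5 CPM in AML and 5.78 ± 2.77 CPM in Control libraries (SD, n = 3 each; edgeR adjusted p 0.0242).

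**Figure D5:**
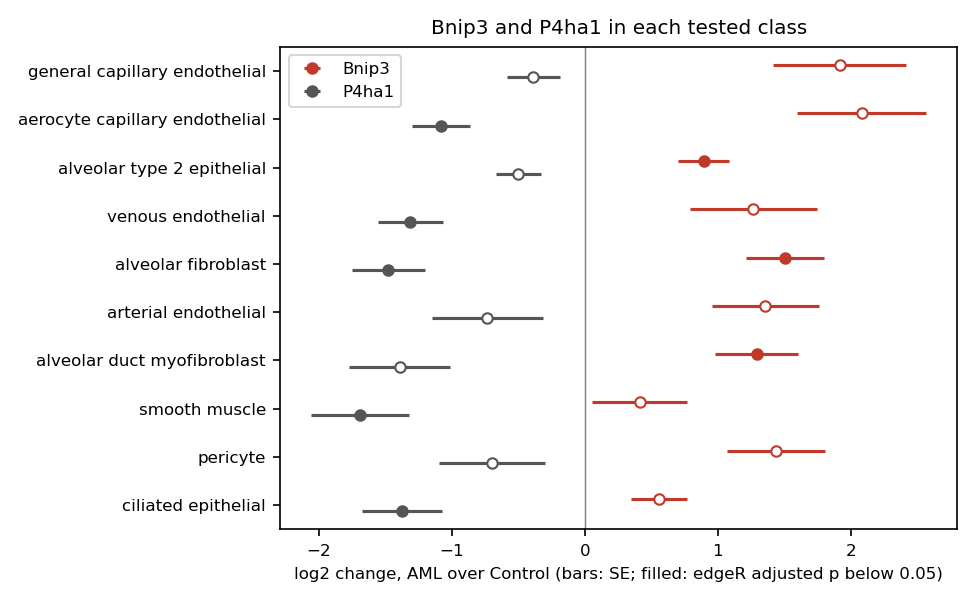
Log2 change, AML over Control, of Bnip3 and of P4ha1 in the 10 tested classes, from edgeR, with bars for the standard error and filled points for an adjusted p below 0.05. The points of Bnip3 lie between 0.41 and 2.08 and those of P4ha1 between -1.69 and -0.39.

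Of 10 partners and paralogues of the members, 4 of 69 pairs were called higher and 2 lower by edgeR. There were 9 higher and 6 lower at an unadjusted p below 0.05, and DESeq2 called 4 higher and 3 lower. Ramp3, a subunit that with Calcrl forms an adrenomedullin receptor, was higher in general capillary cells, aerocytes and venous cells. In general capillary cells it stood at 69.8, 76.0 and 88.9 CPM in AML 1, 2 and 3, against 19.1, 37.0 and 22.0 CPM in Control 1, 2 and 3. The groups were far apart, at a log2 change of 1.58 ± 0.24 (SE) and an edgeR adjusted p of 0.0188. Bhlhe41, the paralogue of Bhlhe40, was called higher in alveolar type 2 cells. Ramp2, the other such subunit and an endothelial gene, was called lower in alveolar fibroblasts, at 39.2 ± 3.49 CPM in AML and 152 ± 108 CPM in Control libraries, and in smooth muscle, at 34.5 ± 17.9 CPM in AML and 118 ± 31.5 CPM in Control libraries (SD, n = 3 each). The 6 endothelial markers, of which Ramp2 is 1, moved with it, as given above for fibroblasts, and summed to 41.3 to 196 CPM in AML and 281 to 538 CPM in Control smooth muscle, and their part in it was not tested. Both Ramp2 calls were lost with doublets kept (adjusted p 0.604 and 0.972). Of the 16 companion calls with a mean of at least 20 CPM, 2 kept an edgeR adjusted p below 0.05 without each library in turn, Angptl4 in alveolar type 2 cells and P4ha1 in alveolar fibroblasts. The other 14 were lost without at least 1 library. DESeq2 did not call P4ha1 in smooth muscle (adjusted p 0.0614) or in ciliated cells (adjusted p 0.0898).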

How the data were processed

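The deposited files hold raw UMI counts per gene and cell for each of 6 libraries, made by the authors with Cell Ranger (version 6.0.1 per the file headers, 7.0.0 per the submitters' processing notes) on mm10. The members and companion lists were chosen with earlier results of these data known.

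Barcodes with at least 500 genes and at most 15% mitochondrial UMIs were kept (24640 of 28516), and the top 0.8% per 1000 cells by Scrublet score were removed as doublets (895), which left 23745 cells. Cells were scaled to 10000 and clustered in scanpy 1.11.5 (2000 variable genes, 30 components, 15 neighbours, Leiden resolution 1.0), which gave 29 clusters. A cluster took a class name from at least 3 detected markers, and 2 stayed unnamed. Names rebuilt in this way may differ from the authors' own.

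Counts were summed per class and library and tested with edgeR 4.0.16 (R 4.3.3; TMM scaling, filterByExpr, robust quasi-likelihood test, Benjamini-Hochberg adjustment over all genes of the class). CPM are TMM-scaled within a class. Differences of the AML effect between classes were fitted with library as a block. The tests were checked on simulated counts. Fewer transcripts per cell and fewer expressing cells cannot be told apart in these sums. Named companion genes are those called with a mean of at least 20 CPM, and the 2 others were named after their values were seen. DESeq2 1.42.0 and the other alternatives are in the closing section.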

Additional observations from a re-analysis of the deposited data

Results flagged for a closer look

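The AML effect (log2, AML over Control) on 4 of the 10 genes differed between a class and general capillary cells by a test of the difference itself, with library as a block in edgeR. For Ldha the effect was lower in alveolar fibroblasts (difference -1.71, adjusted p 7.17e-05), alveolar duct myofibroblasts (-1.56, adjusted p 0.00111), smooth muscle (-1.33, adjusted p 0.0308), alveolar type 2 cells (-1.12, adjusted p 0.00275), ciliated cells (-1.06, adjusted p 0.00577), arterial cells (-0.80, adjusted p 0.0395) and venous cells (-0.57, adjusted p 0.0291). For Bhlhe40 it was lower in alveolar duct myofibroblasts (-2.81, adjusted p 0.000145), arterial cells (-2.56, adjusted p 5.96e-05), alveolar fibroblasts (-2.29, adjusted p 0.000780) and venous cells (-0.87, adjusted p 0.0256). For Ankrd37 it was lower in arterial cells (-2.46, adjusted p 0.000399), and for Higd1a in alveolar type 2 cells (-0.78, adjusted p 0.0171).

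Of these 13 differences, 6 kept an adjusted p below 0.05 without each library in turn: Ldha and Bhlhe40 in alveolar fibroblasts and in duct myofibroblasts, and Bhlhe40 and Ankrd37 in arterial cells. The other 7 were lost without at least 1 library. All 13 share the general capillary values, so they are not independent of each other. They were fitted with cluster 6 in the general capillary class and were not refitted without it.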

How the results depend on the processing

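All 8 calls on the 10 genes kept their direction under the 14 to 16 alternatives run for each, and were called in 7 to 13 of them. The cause of the changes below was not tested. In Control 1, duct myofibroblasts and pericytes had 22 cells each and ciliated cells 23, which limits the precision of their values. No value for alveolar fibroblasts or pericytes came from the lower clustering resolution, none for pericytes from clustering without the list genes, and only general capillary cells changed with broad markers counted against a class, an alternative chosen after seeing the data. Adm in duct myofibroblasts was not tested with equal cells.

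Counts of the 10 genes called moved as follows. With DESeq2 they were 5 in general capillary cells, 4 in aerocytes and 1 in venous cells. With no low-count filter they were 5 in aerocytes, 2 in venous cells, 1 in arterial cells and 2 in pericytes. With equal cells per library they were 2 in aerocytes, 1 in duct myofibroblasts and 1 in ciliated cells. With doublets kept they were 2 in aerocytes, 2 in alveolar type 2 cells and 1 in duct myofibroblasts. With free RNA subtracted they were 2 in duct myofibroblasts.

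The main fits took same-numbered libraries as unpaired, and whether they pair is not known. At most 2 of 3 correlations of their deviations were over 0.1 in any class, with 2 in alveolar type 2 cells. In arterial cells and pericytes each library correlated best with its own number. With the replicate block the genes called were 2 in aerocytes, 1 in arterial cells and 1 in pericytes, and all genes called were 504 in general capillary cells, 720 in alveolar type 2 cells, 67 in venous cells, 115 in arterial cells, 154 in duct myofibroblasts, 162 in pericytes and 66 in ciliated cells.

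All genes called also moved with other settings. With no low-count filter they were 840 in general capillary cells, 600 in aerocytes, 911 in alveolar type 2 cells, 314 in venous cells, 558 in alveolar fibroblasts, 166 in arterial cells, 184 in duct myofibroblasts, 110 in smooth muscle, 176 in pericytes and 84 in ciliated cells. With DESeq2 they were 912 in general capillary, 128 in venous and 50 in arterial cells and 56 in pericytes. With equal cells they were 221 in alveolar type 2, 65 in venous and 11 in arterial cells, 9 in duct myofibroblasts and 28 in smooth muscle. With doublets kept they were 17 in venous cells, 113 in alveolar fibroblasts, 12 in duct myofibroblasts, 24 in smooth muscle, 41 in pericytes and 121 in ciliated cells. With free RNA subtracted they were 28 in smooth muscle and 6 in pericytes. They were 49 in arterial cells with clustering without the list genes, 10 in smooth muscle at resolution 0.5 and 10 in pericytes with DESeq2 size factors in edgeR.

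Without each library in turn, the genes of the group called ranged from 0 to 6 in general capillary cells, 0 to 3 in aerocytes and duct myofibroblasts, 0 to 2 in pericytes, 0 to 1 in alveolar type 2, venous and arterial cells and alveolar fibroblasts, and were 0 in smooth muscle and ciliated cells. All genes called ranged from 0 to 1274 in general capillary cells, 51 to 366 in aerocytes, 60 to 751 in alveolar type 2 cells, 0 to 311 in venous cells, 88 to 304 in alveolar fibroblasts, 5 to 103 in arterial cells, 9 to 104 in duct myofibroblasts, 13 to 76 in smooth muscle, 2 to 263 in pericytes and 22 to 166 in ciliated cells. The differences from general capillary cells called ranged from 0 to 1 in aerocytes, 0 to 3 in alveolar type 2 cells, 0 to 4 in venous cells, 2 to 3 in alveolar fibroblasts, arterial cells and duct myofibroblasts, 0 to 2 in smooth muscle and 0 to 5 in ciliated cells, and were 0 in pericytes.

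None of the log2 changes that turned in sign was called. With equal cells the log2 change was 0.063 for Eno1 in general capillary cells, -0.059 for Pgk1 in aerocytes and -0.044 for Higd1a in alveolar type 2 cells. Without cluster 6 the log2 change was 0.017 for Eno1 in general capillary cells. With doublets kept the log2 change was -0.082 for Slc2a1 in alveolar type 2 cells, -0.010 for Higd1a in alveolar type 2 cells, -0.072 for Slc2a1 in ciliated cells and 0.12 for Eno1 in ciliated cells. With free RNA subtracted the log2 change was -0.053 for Eno1 in arterial cells and -1.31 for Ldha in pericytes. At resolution 0.5 the log2 change was 0.11 for Ldha in smooth muscle. Without each library in turn, Eno1 ranged from -0.28 to 0.22 in general capillary cells, -0.022 to 0.40 in aerocytes, -0.0054 to 0.55 in venous cells and -0.23 to 0.19 in arterial cells. Slc2a1 ranged from -0.15 to 0.29 in alveolar type 2 cells and -0.046 to 0.29 in ciliated cells in the same way. Without each library in turn, Ldha ranged from -0.13 to 0.20 in alveolar type 2 cells and -0.40 to 0.13 in smooth muscle. Ankrd37 ranged from -0.0094 to 0.46 in alveolar type 2 cells in the same way. Without each library in turn, Higd1a ranged from -0.11 to 0.14 in alveolar type 2 cells and -0.12 to 0.40 in ciliated cells. Adm ranged from -0.070 to 0.89 in alveolar fibroblasts in the same way. Without each library in turn, Pgk1 ranged from -0.020 to 0.36 in alveolar fibroblasts, -0.23 to 0.72 in pericytes and -0.038 to 0.24 in ciliated cells. Aldoa ranged from -0.11 to 0.23 in duct myofibroblasts and -0.10 to 0.18 in ciliated cells in the same way.

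Shares of cells with a UMI, AML minus Control in percentage points, moved with thinning. That of Ldha in general capillary cells was 10.7 at 1000 UMIs and 9.50 without thinning. Without thinning that of Bnip3 was 0.993 in alveolar type 2 cells, 12.7 in alveolar fibroblasts and -7.42 in duct myofibroblasts, and that of Higd1a in duct myofibroblasts was -0.828. In duct myofibroblasts at 1000 UMIs that of Bnip3 was 9.13 and that of Adm 5.17, and without thinning that of Adm was 5.53.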
